A study of Mus musculus with 42 samples.

Results

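The 36 genes described here act in G2 and mitosis, the last stages of the cell cycle. They were taken by name from the 4 deposited RNA-seq tables of mouse CD4 T cells, which together hold 2828 genes. Of the 36, 24 appear in at least 1 table and 12 appear in none. Cells with a conditional knockout (cKO) of Trmt61a were compared with wild-type (WT) cells. Both genotypes were naive CD4 T cells from the spleen of C57BL/6 mice aged 8 weeks. The cells were either unstimulated (0 h) or stimulated for 3, 6 or 48 h on plates coated with anti-CD3 (5 µg/ml), together with anti-CD28 (2 µg/ml). These antibodies trigger the T cell receptor and its main costimulatory receptor. Each genotype and time had 2 libraries. The labels of these libraries do not name the Cre line behind the knockout, and they do not say whether the 2 libraries of a group came from separate animals. A p-value between genotypes therefore sets their difference against the spread between libraries, which may be technical.

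Trmt61a encodes the catalytic subunit of the enzyme that methylates adenosine 58 of tRNAs, a modification that helps to keep many tRNAs stable. Naive T cells rest outside the cell cycle, and stimulation drives them through S phase into repeated divisions. In G2, cyclin B builds up and activates CDK1, and the Polo and Aurora kinases then guide chromosome condensation, spindle assembly and cytokinesis. Many genes of this programme share a promoter element, the cell cycle homology region, through which the DREAM complex represses them in resting cells and the MuvB, B-MYB and FOXM1 proteins activate them in G2.

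The values below are scaled counts, that is, gene read counts that the authors divided by 1 scaling factor per library. A gene is called listed when it is in the table of a time, which holds only genes with an unadjusted p under 0.05. It is called changed when the authors' adjusted p was under 0.05. For a gene that is not listed, no value was used, and a p of 0.05 or more cannot be told apart from a gene that was not tested. The 48 h table lists 1195 genes, 437 of them higher and 758 lower in cKO cells. At 48 h 1 read was worth 0.873 to 1.08 scaled counts, and at 0 h 0.923 to 1.14. The depth of the whole libraries is unknown. Trmt61a itself (ENSMUSG00000060950, chr12:111678105-111683902 in mm10) averaged 41.7 ± 26.7 scaled counts in cKO cells at 48 h, against 969 ± 20.3 in WT cells (SD, n = 2 each). It was called lower at all 4 times in the authors' deposited tables.

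At 48 h, 24 of the 36 mitosis and G2/M genes were listed, every one of them as lower in cKO cells, and 13 fell by the authors' adjusted p. Those 13 are the cyclins Ccnb1 and Ccnb2, the kinases Plk1 and Aurka, the passenger complex genes Birc5 and Incenp, and Cenpa, Tpx2, Prc1, Racgap1, Cdc20, Top2a and Mki67. The differences were small. The ratio of the cKO mean to the WT mean had a median of 0.798 over the listed genes, with a range of 0.672 to 0.835. The 13 genes are 36.1% of the 36, while 1.54% of the 9940 genes behind the authors' adjustment were called lower at this time. Likewise 24 of 36 were listed as lower, against 7.33% of the genes in the adjustment. The 36 genes were chosen with earlier results of these data known, so both shares are descriptions and no independent evidence. In the deposited table the 13 genes had a median log2 fold change of -0.41, and the other 140 genes called lower had one of -0.40. In bulk RNA, fewer cells in G2 or mitosis and less RNA per cell cannot be told apart.

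The 13 calls rest on the authors' test, whose name is not given in the sources used here. limma on log2(scaled count + 1), with Benjamini-Hochberg adjustment for the same number of genes, called 0 of the 24 listed genes. Their limma adjusted p ranged from 0.367 to 0.653, and the lowest over all limma settings was 0.136, in a fit added after the first results. Without adjustment, 23 of the 24 had a limma p under 0.05. For Trmt61a itself limma gave an adjusted p of 0.313 at 48 h, at a log2 difference of -4.66, and limma called 6 of the 1195 listed genes in all. In limma the log2 difference of the 24 genes had standard errors of 0.06 (Cenpe) to 0.12 (Tpx2).

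The libraries of the genotypes did not overlap for any of the 24 listed genes, but the same held for 98.8% of all genes listed at 48 h, since being listed favours it. The gap between the genotypes is taken here as that between the nearest cKO and WT libraries of a gene. In 20 of the 24, this gap was wider than the gap between the 2 libraries of either genotype. The exceptions were Foxm1, Tpx2, Espl1 and Mki67. Being listed favours such a gap too. Its share over all listed genes was not computed, so the count of 20 cannot be read as a trait of these genes. cKO library 1 lay below cKO library 2 for 21 of the 24, and WT library 1 lay above WT library 2 for 20. Summed over the 24 genes, the scaled counts were 62701 and 67437 in the cKO libraries, against 82204 and 80181 in the WT libraries. Scaling each library to the sum of its listed genes raised the median log2 difference of all listed genes by 0.113. All 24 genes stayed lower in cKO cells under that scaling, with a median log2 difference of -0.21, and 10 had an unadjusted limma p under 0.05.

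**Figure D1:**
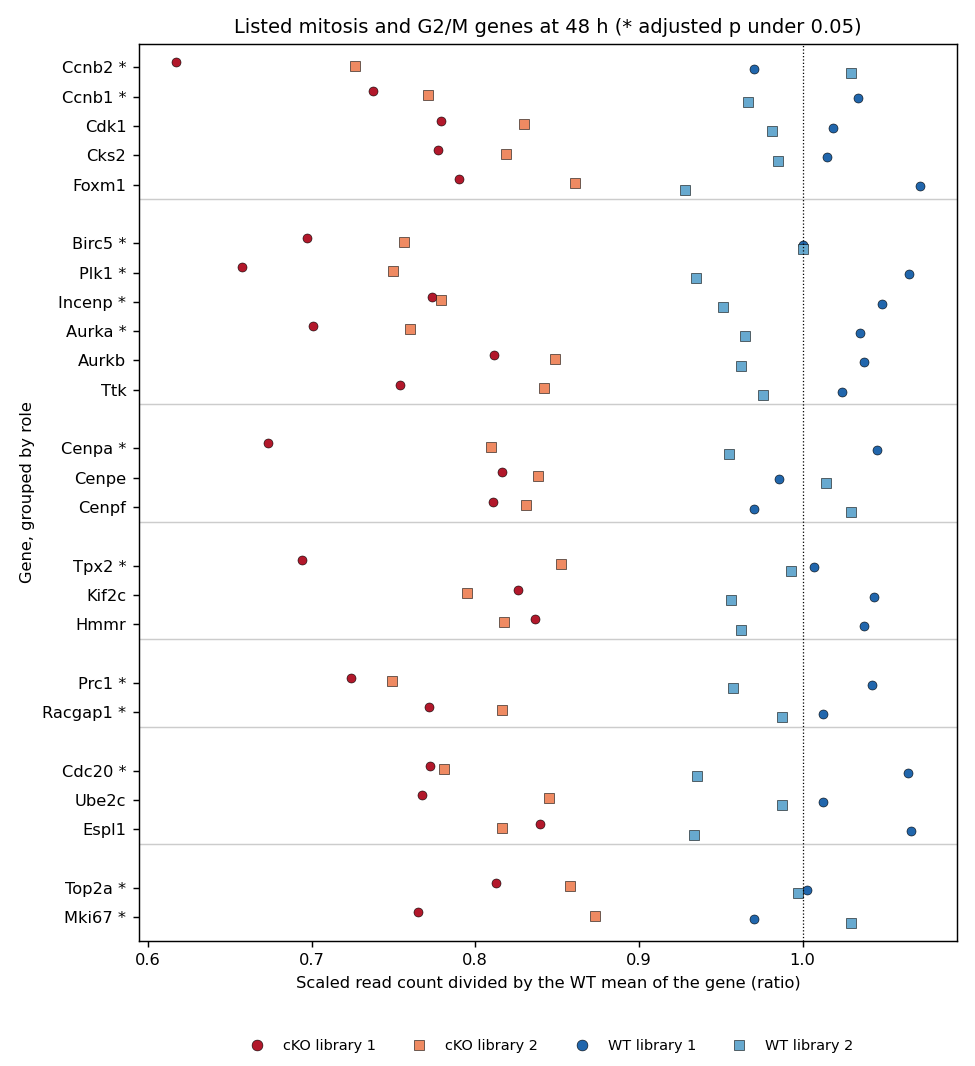
Scaled read count of each listed mitosis and G2/M gene at 48 h, divided by the mean of the 2 WT libraries of that gene (horizontal axis, a ratio). Genes run down the page grouped by role, red and orange points are the 2 cKO libraries, blue points the 2 WT libraries, and an asterisk marks an authors' adjusted p under 0.05. Every cKO point lies left of both WT points of its gene, and the ratio of means runs from 0.672 (Ccnb2) to 0.835 (Top2a).

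Among the 6 genes of mitotic entry, 5 were listed and 2 fell. Ccnb2, a B-type cyclin that activates CDK1, had 768 and 904 scaled counts in the cKO libraries, against 1208 and 1281 in the WT libraries. Its log2 fold change of -0.57 was the largest decrease among the 24 listed genes, with an authors' adjusted p of 0.00232. Ccnb1, the main mitotic cyclin, had 2008 and 2100 scaled counts in cKO cells, against 2814 and 2631 in WT cells. Its log2 fold change was -0.41, with an authors' adjusted p of 0.00431. In both cyclins the higher cKO library stayed well under the lower WT library. Cdk1, their kinase partner, had 1851 and 1971 scaled counts in cKO cells, against 2419 and 2332 in WT cells, and missed the threshold with an authors' adjusted p of 0.0635. Cks2, a small subunit of CDK complexes, had 1323 and 1394 in cKO cells, against 1728 and 1677 in WT cells, with an authors' adjusted p of 0.0883. Foxm1, the transcription factor that activates many G2 genes, had 1584 and 1725 in cKO cells, against 2148 and 1860 in WT cells. For Foxm1 the 2 WT libraries lay further apart than the nearest cKO and WT libraries did, and its authors' adjusted p was 0.237. Cdc25c, a phosphatase that activates CDK1, was not listed.

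Of the 8 mitotic kinases and chromosomal passenger genes, 6 were listed and 4 fell. Birc5 (survivin, a passenger complex subunit) had 1665 and 1807 scaled counts in cKO cells, against 2388 and 2388 in WT cells. Its authors' adjusted p of 0.00113 was the lowest of the 36 genes, at a log2 fold change of -0.46. Plk1, the Polo kinase, had 1386 and 1580 scaled counts in cKO cells, against 2245 and 1971 in WT cells. Its log2 fold change was -0.51, with an authors' adjusted p of 0.00214. Here the WT libraries also differed from each other, yet by less than the genotypes. Incenp, the scaffold of the passenger complex, had 2991 and 3013 in cKO cells, against 4055 and 3681 in WT cells, with a log2 fold change of -0.37 and an authors' adjusted p of 0.00695. Aurka, the Aurora kinase of the spindle poles, had 936 and 1015 in cKO cells, against 1383 and 1289 in WT cells, with a log2 fold change of -0.45 and an authors' adjusted p of 0.0141. Aurkb, the catalytic subunit of the passenger complex, was listed but did not pass. It had 2072 and 2167 scaled counts in cKO cells, against 2649 and 2457 in WT cells, with an authors' adjusted p of 0.151. Ttk, a spindle checkpoint kinase, had 477 and 533 in cKO cells, against 648 and 618 in WT cells, and the highest authors' adjusted p of the listed genes, 0.402. It was also the gene with the lowest counts among them. The checkpoint genes Bub1 and Bub1b were not listed.

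Of the 6 centromere and kinetochore genes, 3 were listed and 1 fell. Cenpa, the histone H3 variant that marks centromeres, had 1390 and 1672 scaled counts in cKO cells, against 2159 and 1972 in WT cells. Its log2 fold change was -0.43, with an authors' adjusted p of 0.0180, and the gap between genotypes was barely wider than that between the cKO libraries. Cenpe, a kinetochore motor, had 1715 and 1762 in cKO cells, against 2070 and 2131 in WT cells, with an authors' adjusted p of 0.153. Cenpf, a kinetochore protein of G2 and M phase, had 1419 and 1455 in cKO cells, against 1698 and 1802 in WT cells, with an authors' adjusted p of 0.175. Replicate libraries lay close together for these last genes, and the genotypes differed by less than for Cenpa. Ndc80 and Nuf2, of the outer kinetochore, and Sgol1, which protects centromeric cohesion, were not listed.

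Of the 6 spindle motors and microtubule binding proteins, 3 were listed and 1 fell. Tpx2, which activates Aurora A on the spindle, had 2292 and 2814 scaled counts in cKO cells, against 3324 and 3278 in WT cells. Its log2 fold change was -0.37, with an authors' adjusted p of 0.0322. The 2 cKO libraries differed by more than the gap to the WT libraries. Kif2c, a microtubule depolymerase, had 1087 and 1046 in cKO cells, against 1372 and 1258 in WT cells, with an authors' adjusted p of 0.209. Hmmr, a spindle and hyaluronan binding protein, had 1461 and 1427 in cKO cells, against 1811 and 1680 in WT cells, with an authors' adjusted p of 0.209. Neither passed the threshold. The motors Kif11 and Kif4 and the microtubule binding protein Nusap1 were not listed.

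Of the 4 genes of cytokinesis and the spindle midzone, 2 were listed and both fell. Prc1, which bundles midzone microtubules, had 975 and 1008 scaled counts in cKO cells, against 1403 and 1289 in WT cells, with a log2 fold change of -0.44 and an authors' adjusted p of 0.0166. Racgap1, a subunit of centralspindlin, had 2033 and 2151 in cKO cells, against 2667 and 2601 in WT cells, with a log2 fold change of -0.33 and an authors' adjusted p of 0.0299. Replicates of both genes were close beside the gap between genotypes. Their motor partners Kif20a and Kif23 were not listed.

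Of the 4 genes that act at anaphase, 3 were listed and 1 fell. Cdc20, the activator of the anaphase-promoting complex, had 2076 and 2099 scaled counts in cKO cells, against 2860 and 2515 in WT cells, with a log2 fold change of -0.37 and an authors' adjusted p of 0.0227. Ube2c, the ubiquitin-conjugating enzyme of that complex, had 2258 and 2486 in cKO cells, against 2979 and 2905 in WT cells, and came close to the threshold with an authors' adjusted p of 0.0561. Espl1 (separase) had 2391 and 2325 in cKO cells, against 3037 and 2659 in WT cells, with an authors' adjusted p of 0.158. The WT libraries of Espl1 lay further apart than its nearest cKO and WT libraries. Pttg1 (securin), the inhibitor of separase, was not listed.

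Both genes of chromosome structure fell. Top2a, which untangles replicated DNA, had 15320 and 16173 scaled counts in cKO cells, against 18904 and 18803 in WT cells. Its log2 fold change of -0.26 was the smallest decrease of the 24 genes, with an authors' adjusted p of 0.0215. Mki67, the proliferation marker that coats mitotic chromosomes, had 11224 and 12810 in cKO cells, against 14235 and 15104 in WT cells, with a log2 fold change of -0.29 and an authors' adjusted p of 0.0357. These were the 2 most abundant of the listed genes in scaled counts. Per kilobase of gene length, Cks2 had the highest level, with 1963 scaled counts per kilobase in cKO cells and 2460 in WT cells. Cenpf had the lowest, with 93.1 in cKO cells and 113 in WT cells.

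At 0 h, 3 of the 36 genes were listed, in the other direction, and 0 were called by the authors' adjusted p. Of the 24502 genes behind the adjustment, 1.21% were listed as higher and 0.0% were called higher. limma also called 0 of the 3 at 0 h, and 1 of them had an unadjusted limma p under 0.05. Mki67 had 500 and 824 scaled counts in the unstimulated cKO libraries, against 294 and 220 in the WT libraries, with a log2 fold change of 1.37 and an authors' adjusted p of 0.287. Top2a had 504 and 622 in cKO cells, against 409 and 272 in WT cells, with a log2 fold change of 0.72 and an authors' adjusted p of 0.999. Cenpf had 59.9 and 119 in cKO cells, against 34.5 and 16.6 in WT cells, with a log2 fold change of 1.80 and an authors' adjusted p of 0.999. In all 3 genes cKO library 2 was the highest, the genotypes did not overlap (as for 85.4% of genes listed at 0 h), and the gap between genotypes was narrower than the gap within one of them. cKO library 2 also had the highest sum over all listed genes of that time. Scaling each library to that sum moved the median log2 difference of all genes listed at 0 h by -0.543, and left the 3 genes higher in cKO cells, by 0.20 to 1.24 on the log2 scale. Of 105 further mitosis and G2/M genes, 3 were listed at 0 h, all as higher in cKO cells, and 0 were called. Of 60 genes for G1/S and replication of DNA, 2 were listed, both as higher, and 0 were called. Some marker genes of other cells were listed at 0 h too. Of the 24502 genes, 87 were listed as lower and 3 were called lower, namely Trmt61a and 2 submandibular gland genes. Of 12 monocyte and macrophage markers, C1qa, C1qb and C1qc were listed as lower, and 0 of them were called (authors' adjusted p 0.999 each, limma 0 called). They summed to 1992 and 1088 scaled counts in the cKO libraries, against 3558 and 1838 in the WT libraries, and for C1qa and C1qb the genotypes overlapped. Of 10 erythroid markers, Alas2 was listed but not called (authors' adjusted p 0.999), with 193 and 254 scaled counts in cKO cells and 104 and 71.0 in WT cells. Of 22 submandibular gland genes, 10 were listed as lower and 2 were called. They summed to 84.5 and 72.0 in the cKO libraries, against 2445 and 83.0 in the WT libraries, so that WT library 1 held most of them. Their part in the values of the 3 genes was not tested.

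**Figure D2:**
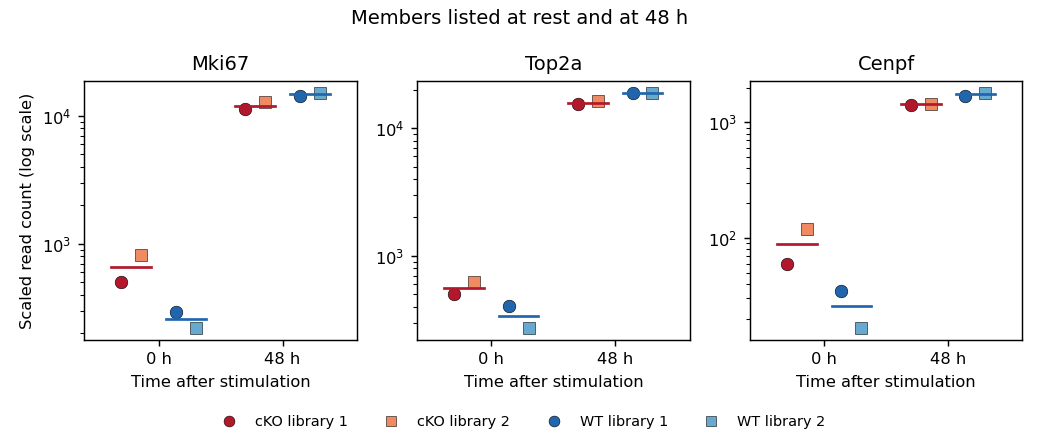
Scaled read counts (vertical axis, log scale) of Mki67, Top2a and Cenpf in unstimulated cells (0 h) and at 48 h, with each cKO library (red, orange) left of the WT libraries (blue) and a line at each mean. At 0 h the cKO points lie above the WT points and at 48 h below them, and the 2 tables were scaled separately.

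At 3 h and 6 h, 0 of the 36 genes were listed. The share of genes called in either direction by the authors' adjusted p was 1.64% at 3 h and 0.5% at 6 h, and the share listed among genes in the adjustment was 6.51% at 3 h and 4.29% at 6 h. With no values, no unadjusted p or limma count can be given for the 36 genes at these times.

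Other cell cycle genes at 48 h were read from separate lists. Those lists, with the list of inhibitors and p53 targets below, were chosen with earlier results of these data known. Their counts are therefore no independent check on the mitosis and G2/M genes above. Of 105 further mitosis and G2/M genes, 30 were listed, all as lower in cKO cells, and 9 fell by the authors' adjusted p. Of all genes in the adjustment 7.33% were listed as lower and 1.54% were called lower, which is also the background of the G1/S and histone counts here. Hmgb2, a chromatin protein, had 8901 and 8837 scaled counts in cKO cells, against 12176 and 12508 in WT cells, with an authors' adjusted p of 1.90e-07. Cdc25b, a phosphatase that activates CDK1, had 1013 and 1151 in cKO cells, against 1610 and 1499 in WT cells, with an authors' adjusted p of 0.00232. The other 7 included the tubulin gene Tubb4b and the microtubule regulator Stmn1. A list of 60 genes for G1/S and replication of DNA had 19 listed members, which were all lower in cKO cells. Of these, Dut, Tk1 and Mcm7 fell (3 genes). Dut, which removes dUTP, had 3214 and 3183 in cKO cells, against 4625 and 4457 in WT cells. Of 41 core histone genes, 5 were listed as lower, 4 of them with an adjusted p of 1 and so set aside from the adjustment. By the authors' adjusted p 0 of them were called, and limma called 1. That gene, Hist2h2ac, was near the floor, with 0 and 0 scaled counts in cKO cells, against 6.98 and 7.39 in WT cells. Of the listed mitosis and G1/S genes limma called 0, with an unadjusted limma p under 0.05 for 28 of the 30 and 14 of the 19.

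Inhibitors of the cell cycle and targets of p53 moved the other way in part. Of 26 such genes, 12 were listed, 10 as higher and 2 as lower in cKO cells, and 5 rose by the authors' adjusted p. limma called 0 of the 12, with an unadjusted p under 0.05 for 6. By comparison, 0.835% of the genes in the adjustment were called higher, and 437 of all 1195 listed genes were listed as higher. Cdkn1a (p21), an inhibitor of cyclin-dependent kinases, had 6041 and 4541 scaled counts in cKO cells, against 3037 and 3223 in WT cells, with a log2 fold change of 0.76 and an authors' adjusted p of 2.56e-07. The others that rose included Trp53inp1, Bbc3 and Pmaip1, of which Bbc3 and Pmaip1 promote apoptosis. For Cdkn1a, Trp53inp1 and Bbc3 the 2 cKO libraries lay further apart than the nearest cKO and WT libraries did. In each of them the higher cKO library was library 1, in which most of the 24 mitosis and G2/M genes were lower. A link between these patterns was not tested. For Pmaip1 the gap between genotypes was wider than that within either genotype.

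**Figure D3:**
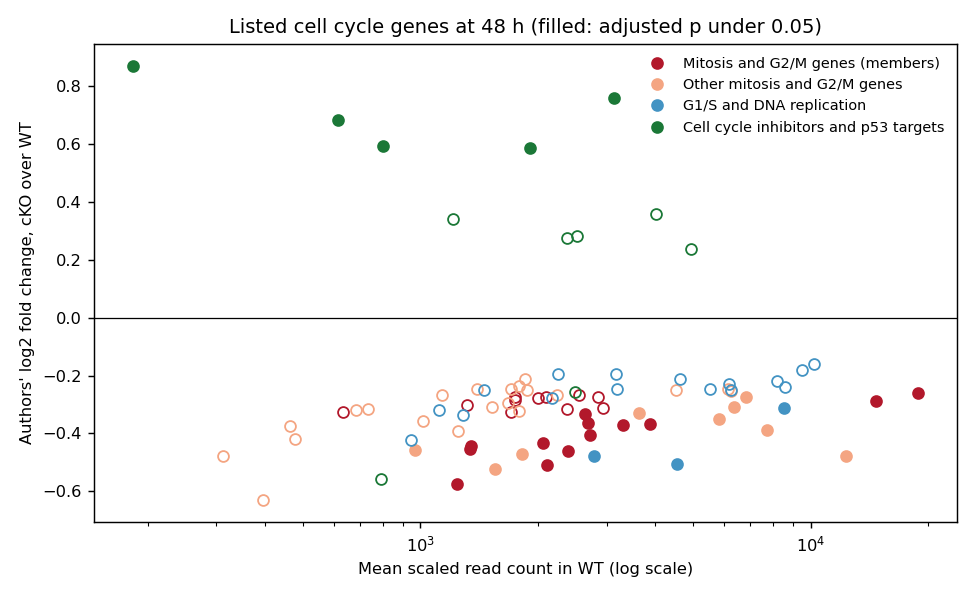
Authors' log2 fold change of cKO over WT at 48 h (vertical axis) against the mean scaled read count in WT cells (horizontal axis, log scale) for listed genes of 4 cell cycle lists. Filled points have an authors' adjusted p under 0.05. All listed mitosis, G2/M and G1/S genes lie below 0, and 10 of the 12 listed inhibitors and p53 targets lie above it.

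Markers of other cells were nearly absent from the 48 h table. Of the B and plasma cell, monocyte and macrophage, erythroid and pancreatic acinar markers, 0 were listed (neither called nor at an unadjusted p under 0.05 in the authors' test). Of 14 markers for CD8 T cells, NK cells or gamma-delta T cells, Eomes alone was listed. It was called lower (authors' adjusted p 0.00816), with 944 and 973 scaled counts in cKO cells and 1481 and 1242 in WT cells. Of 22 submandibular gland genes, Bpifa2 alone was listed, with 15.9 and 55.2 in cKO cells and 4.36 and 7.39 in WT cells. Of 12 CD4 T cell markers, Cd5, Cd28 and Ccr7 were listed as higher, and summed to 31712 and 29773 in the cKO libraries, against 26221 and 24968 in the WT libraries. Of these Cd5 was called higher (authors' adjusted p 0.00198), and Cd28 and Ccr7 were not called. Of all genes in the adjustment, 7.33% were listed as lower, 1.54% were called lower and 0.835% were called higher. The share listed as higher was not computed, so these few markers cannot be read as a trait of their cell types. The part of the markers in the decrease of the mitosis genes was not tested. Levels of unlisted markers such as Cd4 were not used here.

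The promoters of these genes were read for the element that many of them share. RefSeq windows of 300 bases (GRCm38.p6), from 250 bases before the annotated start to 50 after it, matched 30 of the 36 genes, Sgol1 through its current symbol and Prc1 with 2 windows. Cdc25c, Foxm1, Aurkb, Incenp, Kif20a and Tpx2 are named only. A match to the cell cycle homology region was TTTGAA or TTCGAA on either strand, and a match to the CCAAT box, which NF-Y binds, was CCAAT on either strand. TTCGAA reads the same on both strands, and 0 matches of the 2 elements shared a base. The windows of the 6 genes with the lowest authors' adjusted p among those with a match to the homology region follow, because they show where the element lies in genes that fell. Each is written in the direction of the gene, with the matches in capitals. TTCAAA and ATTGG are matches on the other strand.
Plk1 (chr7:122159185-122159484, plus strand): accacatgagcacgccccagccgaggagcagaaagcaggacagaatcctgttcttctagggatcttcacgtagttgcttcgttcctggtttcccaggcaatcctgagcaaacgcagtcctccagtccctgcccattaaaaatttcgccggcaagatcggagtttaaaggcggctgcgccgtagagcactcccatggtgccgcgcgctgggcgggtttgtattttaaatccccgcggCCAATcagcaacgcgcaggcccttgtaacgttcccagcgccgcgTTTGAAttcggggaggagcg
Ccnb2 (chr9:70421505-70421804, minus strand): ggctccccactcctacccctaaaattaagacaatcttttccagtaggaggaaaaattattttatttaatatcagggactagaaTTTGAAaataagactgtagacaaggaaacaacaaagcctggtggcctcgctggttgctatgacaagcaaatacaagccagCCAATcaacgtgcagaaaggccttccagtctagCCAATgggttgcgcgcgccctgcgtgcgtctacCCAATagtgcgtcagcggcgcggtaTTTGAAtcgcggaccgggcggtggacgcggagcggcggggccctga
Aurka (chr2:172370521-172370820, minus strand): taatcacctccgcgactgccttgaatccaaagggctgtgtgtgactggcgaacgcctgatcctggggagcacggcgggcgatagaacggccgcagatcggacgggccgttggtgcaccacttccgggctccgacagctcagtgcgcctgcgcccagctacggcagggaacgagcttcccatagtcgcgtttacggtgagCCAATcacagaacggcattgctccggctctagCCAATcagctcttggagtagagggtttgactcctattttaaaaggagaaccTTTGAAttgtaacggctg
Prc1 (chr7:80294201-80294500, plus strand): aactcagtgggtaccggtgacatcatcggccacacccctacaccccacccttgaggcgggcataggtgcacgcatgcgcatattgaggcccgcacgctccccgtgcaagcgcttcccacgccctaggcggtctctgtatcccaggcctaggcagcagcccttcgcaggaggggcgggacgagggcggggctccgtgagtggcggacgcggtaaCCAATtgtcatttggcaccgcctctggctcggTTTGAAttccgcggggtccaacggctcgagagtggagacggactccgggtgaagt
Cenpa (chr5:30666636-30666935, plus strand): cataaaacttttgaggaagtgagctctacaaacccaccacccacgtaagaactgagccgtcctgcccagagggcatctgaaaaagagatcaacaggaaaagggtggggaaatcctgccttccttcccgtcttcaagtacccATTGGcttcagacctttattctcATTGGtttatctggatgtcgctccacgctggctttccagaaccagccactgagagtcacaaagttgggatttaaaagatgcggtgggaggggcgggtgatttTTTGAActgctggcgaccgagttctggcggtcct
Top2a (chr11:99024140-99024439, minus strand): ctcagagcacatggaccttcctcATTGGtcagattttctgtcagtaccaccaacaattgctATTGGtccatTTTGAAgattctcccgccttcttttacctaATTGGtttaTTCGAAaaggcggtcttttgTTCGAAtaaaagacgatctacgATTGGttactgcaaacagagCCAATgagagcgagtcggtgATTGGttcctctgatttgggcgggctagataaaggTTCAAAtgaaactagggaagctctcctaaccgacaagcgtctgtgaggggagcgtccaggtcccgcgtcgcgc

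In Plk1, Aurka and Cenpa the match to the homology region lies 30, 32 and 16 bases after the start, and in Prc1 5 bases before it. Ccnb2 has a match 4 bases after the start and 3 CCAAT boxes upstream of it. Top2a holds 4 matches to the homology region, 23 to 179 bases before its start. Of the 31 windows, 24 had such a match, a share of 77.4% (exact 95% binomial interval 58.9 to 90.4%), while 19.2% of all 32851 windows of that length had one. The 2 windows of Prc1 overlap, and the interval counts them as separate. By gene, 23 of 30 had a match. CCAAT was found in 80.6% of the members' windows and in 37.4% of all windows, and both elements in 71.0% and in 7.52%. Of the 23 genes with a match to the homology region, 21 had one within 50 bases of the start. The share over all windows at that distance was not computed. All these matches are letters in a window and not tested sites.

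Windows of listed and unlisted genes among the 36 were not tested against each other. The homology region was found in 17 of 21 windows of genes listed at 48 h (81.0%) and in 7 of 10 windows of genes not listed (70.0%, exact 95% binomial interval 34.8 to 93.3%). For TTTGAA alone the counts were 17 of 21 in listed genes and 5 of 10 in genes not listed. CCAAT was found in 19 of 21 windows of listed genes and in 6 of 10 of the others. Birc5 and Ccnb1, which fell, had no match to the homology region in their windows, though the Ccnb1 window held CCAAT. Among the other genes listed as lower at 48 h, 16.4% of 702 windows had a match to the homology region. Among genes listed as higher, 14.9% of 444 had one.

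**Figure D4:**
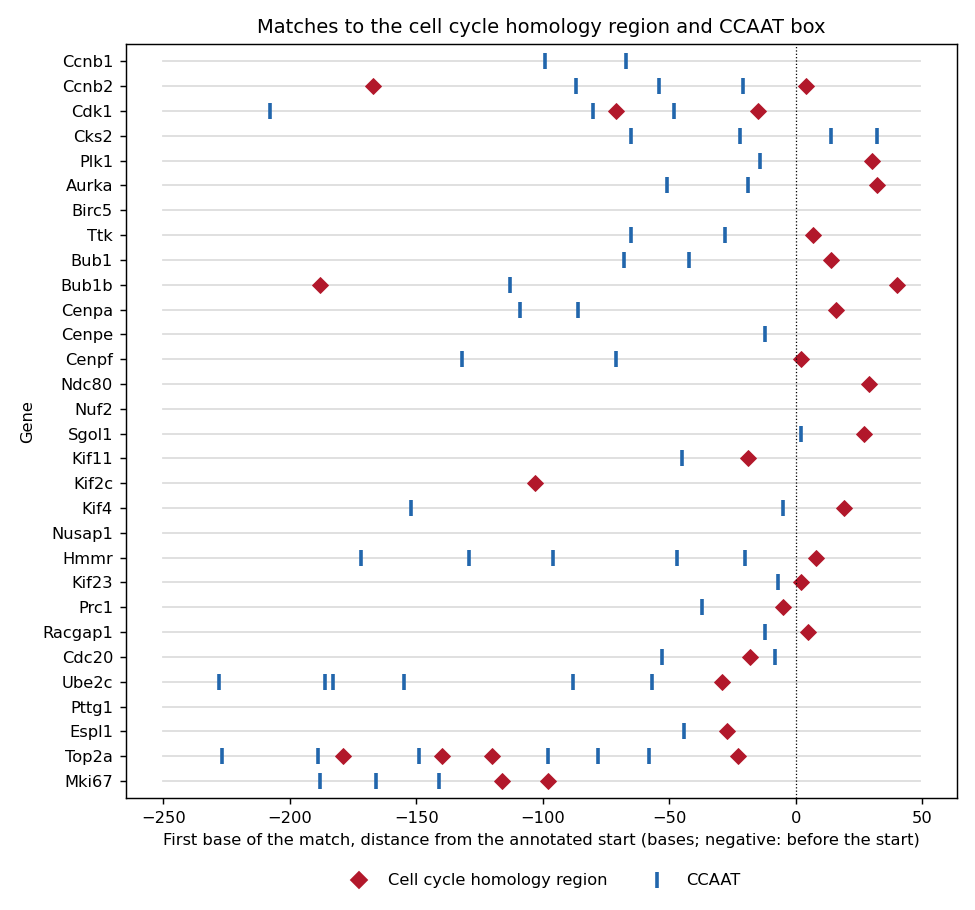
Position of each match to the cell cycle homology region (red diamonds) and to CCAAT (blue bars), as the distance in bases of its first base from the annotated start (horizontal axis), for the 30 genes with a window (for Prc1, the first window). Most diamonds lie near the start, with 21 of 23 genes having one within 50 bases of it.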

How the data were processed

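RNA was sequenced from 2 cKO and 2 WT libraries at each of 0, 3, 6 and 48 h, within a series of 42 samples. The authors deposited 1 table per time, in which the highest unadjusted p is just under 0.05. The values of each library are a signal: gene read counts divided by 1 factor per library, and 100% of the deposited values above 0 were whole multiples of 1 step per library (tolerance 0.01). The authors also deposited each gene's log2 fold change (cKO over WT) with its raw p-value and adjusted p-value. The test behind them is not given in the sources used here. The submitters' processing notes name the aligners HISAT2 2.0.5 and Bowtie2 2.4.1, the counter featureCounts 1.5.0-p3, the trimmer Trim Galore 0.6.6 and the build mm10, with no assay for each. The gene lengths that the authors deposited gave levels per kilobase.

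A call is an authors' adjusted p under 0.05. The number of genes behind each adjustment was recovered from the p-values. Benjamini-Hochberg values recomputed with it matched within 1% for all 1102 genes compared at 48 h, all 1002 at 3 h, 564 of 713 at 6 h and 10 of 384 at 0 h, so at 0 h and 6 h the number is uncertain. At 48 h, 93 listed genes with an adjusted p of 1 were treated as set aside from the adjustment. limma 3.58.1 (R 4.3.3) on log2(value + 1), adjusted over the same number, was an alternative. It was tried on simulated data with folds larger than those of the members listed at 48 h. That trial therefore cannot tell whether limma finds folds of their size. An early version of the limma fit used Holm's adjustment by mistake and a mean-variance trend. It was corrected to the Benjamini-Hochberg adjustment and the trend was moved to an added setting, after results had been seen. Because only selected genes enter, the spread that limma pools may differ from that of all genes. The tables were normalized separately, so levels were not tested across times. The members, the other lists and the promoter search were chosen with earlier results of these data known. All members are named, with every library's value where listed, and up to 4 genes of each other list. Intervals cover counting error only.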

Additional observations from a re-analysis of the deposited data

Results flagged for a closer look

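Mki67, Top2a and Cenpf were flagged because the genotypes differed one way at 0 h and the other way at 48 h, in every library. The log2 difference of cKO minus WT at 48 h minus that at 0 h was -1.63 for Mki67, -1.01 for Top2a and -2.10 for Cenpf. With 2 libraries per group, an exact permutation test of genotype labels within each time (two-sided, 36 relabelings) gave p = 0.05556 for each gene. It was the same after Benjamini-Hochberg adjustment over the 3, and is the smallest p this design allows. Any gene whose genotypes separate fully one way at 0 h and the other way at 48 h gets this p. The 3 genes were flagged for that pattern, so the outcome was fixed in advance and nothing is concluded from it. The 3 genes were tested because they are listed at both times, so each already had an unadjusted p under 0.05 at 0 h and at 48 h, and the authors' adjusted p was over 0.05 for all 3 at 0 h. The tables of the 2 times were scaled separately.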

How the results depend on the processing

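At 48 h the count of the 36 genes called lower was 13 in the main result, 5 at an authors' adjusted p under 0.01 and 16 under 0.1. limma called 0 with a pseudocount of 1 or 10, with a mean of at least 10, after scaling to the listed sum, with the replicate block, with the crossed replicate block and with a mean-variance trend without or with the block (the last 3 kinds were added after the data were seen). With each library left out, limma called 0 to 0, the lone library of a genotype being assumed to vary like the others. Of the 105 further mitosis genes the count was 9, with 6 under 0.01, 14 under 0.1 and 0 in every limma setting, each library left out included (0 to 0). Of the 60 G1/S genes it was 3, with 3 under 0.01, 7 under 0.1 and 0 in every limma setting, each library left out included (0 to 0). The lower direction held for all 24 listed genes in every limma setting. An unadjusted limma p under 0.05 was found for 23 of them, for 22 with the replicate block, for 15 without cKO library 1, 19 without cKO library 2, 5 without WT library 1, and 10 without WT library 2. At 0 h the count was 0 under every setting run. At 3 and 6 h 0 of the 36 genes were listed, so the count could only be 0 and no setting tested them. Deviations of same-numbered libraries correlated at 0.0597, -0.108, 0.0338 and 0.126 at 0, 3, 6 and 48 h. Only genes listed for a difference between genotypes entered, so these values cannot decide whether the replicate numbers pair the samples. At 3 h the replicate block and the crossed replicate block each called 0 of 1091 genes. At 6 h the replicate block called 48 of 740 genes, against 0 without a block and 0 with the crossed block. At 48 h the 2 blocks called 1 gene each, against 6 without a block. The share of promoter windows with the homology region was 71.0% for TTTGAA alone and 25.8% in the 100 bases before the start, which leave out matches after the start. Over all windows the matching shares were 17.9% for TTTGAA alone and 6.13% in the 100 bases before the start. The planned edgeR and DESeq2 fits on recovered reads were not run. Because only listed genes were used, and whole-library depth is unknown, the cause of the difference between the authors' test and limma was not tested.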
